A study of Homo sapiens with 21 samples.

Results

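ATF7 knockout clone 2 was compared with ATF7 knockout clone 1, a pair of lines with the same targeted gene, each grown from its own single cell. Whether the lines carry the same edit was not examined here. Each clone was measured in 2 libraries, so the comparison rests on 4 of the 19 libraries in the deposited table. Of 20423 genes in that table, 14113 had a mean of at least 10 normalized counts over the 4 libraries and were tested. All lines are derivatives of THP1, a human acute myeloid leukemia line with a monocytic character. The ATF7 and JDP2 knockouts were made with Lenti-CRISPRv2 constructs and grown out from single cells by limiting dilution. Values of 2 JDP2 knockout clones (2 libraries each) and of 5 control libraries (2 of an shRNA control, 1 of wild type, 2 of a knockout control) are given beside the ATF7 clones as a scale. Each ATF7 line is 1 clone, so a difference between the pair cannot be told apart into what the edit did and what the founding cell already carried. The labels do not say whether the libraries of a clone came from separate cultures, and p-values measure only the spread between them, which may be technical.

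ATF7 is a basic leucine zipper transcription factor of the ATF2 group, which binds cyclic AMP response elements as a dimer, also with JDP2 or with JUN proteins. It is known for recruiting histone modifying enzymes and for keeping immune genes low in macrophages. A clone is the progeny of 1 cell, so DNA methylation, chromosome gains and losses and on or off states of genes in that cell are passed to all of its cells and can set sister clones of the same genotype apart.

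The 4 libraries held 28.7 and 34.4 M (mega) reads in genes in clone 2, and 35.1 and 35.8 M in clone 1. Clone 2 replicate 1 stood apart from the other 3. It had reads in 18875 genes, against 14575 in clone 2 replicate 2 and 15636 and 17310 in clone 1. Its log2 values correlated with those of clone 2 replicate 2 at 0.918, whereas clone 2 replicate 2 correlated with the clone 1 libraries at 0.966 and 0.963, and the clone 1 libraries with each other at 0.974. Among tested genes, 2201 were over 2 log2 units higher in clone 2 replicate 1 than in replicate 2 and 18 were over 2 log2 units lower, and 2022 of the 2201 were among the 3028 genes with a mean under 50. Most genes named below are therefore given by library, whereas most list medians are those of the clone difference.

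The targeted gene was examined first. ATF7 mRNA (chromosome 12, 53507856 to 53626382, GRCh38.p14) stood at 617 and 363 normalized counts in clone 2 and at 645 and 511 in clone 1, with 210.0 to 537 in the 5 controls. The clones overlapped (log2 difference -0.28, SE 0.33, adjusted p = 0.941), and neither lay below the controls. Gene totals cannot show a small insertion or deletion, so they check neither knockout. JDP2, the dimer partner, stood at 2636 and 5447 in clone 2 and at 4817 and 5042 in clone 1, and the libraries overlapped (adjusted p = 0.906). IRF2BP2, the cofactor knocked down elsewhere in the series, stood at 17579.8 and 27597 in clone 2 and at 17609 and 22455 in clone 1 and also overlapped (adjusted p = 0.977). Genes that mark THP1 had reads in both clones, though not all lay within the control range. SPI1, the transcription factor of the myeloid lineage, stood at 12519 and 21482 in clone 2 and at 13938 and 17527 in clone 1. The controls held 7155 to 12900, so clone 1 was above them. LYZ, which encodes lysozyme, stood at 15173 and 22686 in clone 2 and at 30399 and 47069.9 in clone 1. CD33 was below the controls (1267 to 1658), at 627 and 767 in clone 2 and 934 and 745 in clone 1. In clone 2 only, MEIS1 was wholly below them at 1746 and 2145 (controls 3477 to 5260). So was CSF1R at 112 and 28.8 (controls 137 to 193). ITGB2, FCER1G and HOXA9 were not wholly outside the controls in either clone. CD14 and MPO were low in clone 2 (30.1 and 7.2 for CD14, 53.2 and 19.2 for MPO), in clone 1 (2.16 and 18.4 for CD14, 26.95 and 27.1 for MPO) and in the controls (3.75 to 16.3 for CD14, 18.5 to 36.04 for MPO).

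The clones differed in 144 genes, 1.02 percent of those tested, by limma moderated statistics at a Benjamini-Hochberg adjusted p under 0.05. Clone 2 was higher in 28 of them (0.198 percent) and lower in 116 (0.822 percent), while the median over all tested genes was 0.11 on the log2 scale. The higher genes were few but differed by large amounts, with LRP3, CERS1, GAL and EPS8L1 over 5 log2 units higher in clone 2. The lower genes included RENBP, ITGAD and CD74 at the far end and a larger body with differences between 1 and 3 log2 units. Single libraries decided much of this count. Without clone 2 replicate 1 the fit called 5 genes (GAL and LRP3 higher, RENBP, ITGAD and CD74 lower). Without clone 2 replicate 2 limma called 0 genes, with 2119 at an unadjusted p under 0.05. With quantile normalization 11 genes were higher and 11 lower, and in a fit of all 19 libraries 36 were higher and 30 lower, so the excess of lower genes depends on the scaling and on the libraries fitted. Of the 144 genes, 13 were also called in all of 14 other settings of scaling, filter, tool, block and fitted libraries, 10 of them higher in clone 2 and 3 lower. These settings include the fit of all libraries without clone 2 replicate 1. They do not include the fits of the 4 libraries with 1 left out.

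**Figure D1:**
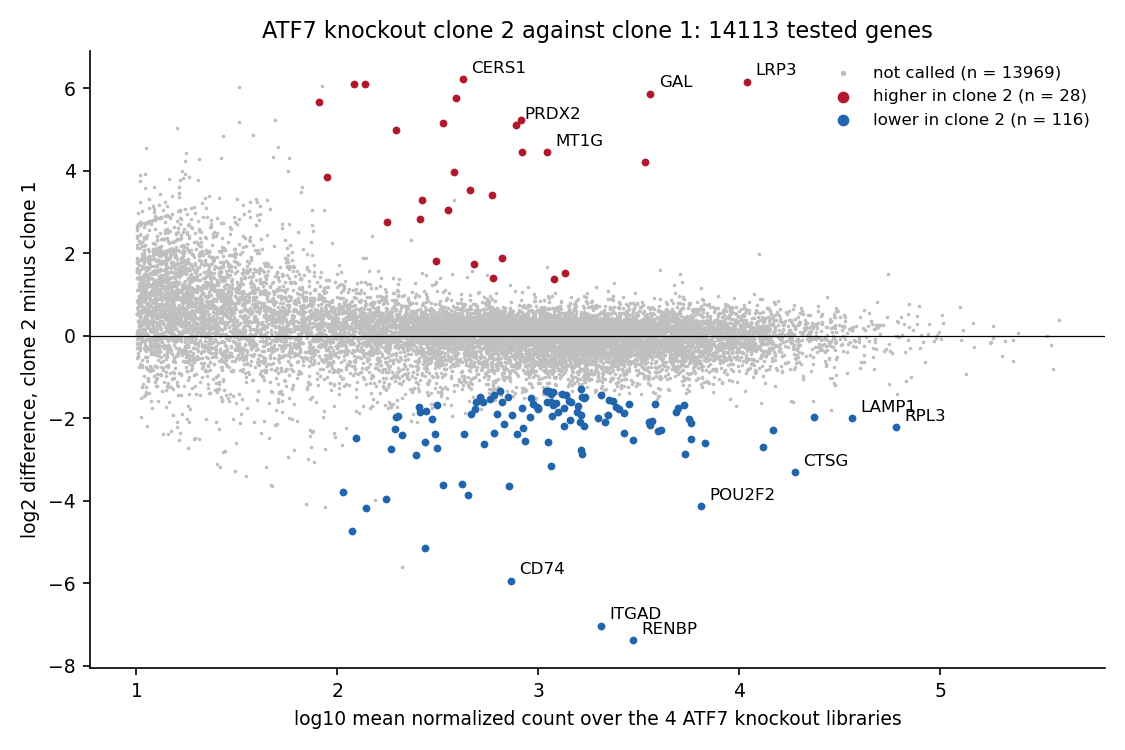
Each point is 1 of 14113 tested genes, plotted by the log10 mean normalized count over the 4 ATF7 knockout libraries and by the log2 difference of clone 2 minus clone 1. The 28 genes called higher in clone 2 (red) reach 6.23, the 116 called lower (blue) reach -7.37, and most genes with a low mean lie above 0 without being called.

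Many of the higher genes shared a chromosome. Of the 28 genes called higher in clone 2, 14 lie on chromosome 19 (1.29 percent of its 1082 tested genes, against 0.198 percent over all genes), and 9 of the 15 with the largest difference are there. On the same chromosome 11 genes were lower in clone 2 (1.02 percent, against 0.822 percent). CERS1, a ceramide synthase (chromosome 19, 18868545 to 18896982), stood at 716 and 951 normalized counts in clone 2 and at 6.47 and 15.2 in clone 1, with 112 to 518 in the controls (log2 difference 6.23, SE 0.50, adjusted p = 0.000177). Both clone 1 libraries lay below all controls and both clone 2 libraries above them. Its span overlaps GDF1, and reads of the 2 genes could not be separated. LRP3, a lipoprotein receptor-related protein (chromosome 19, 33194330 to 33208864), stood at 15304 and 27665 in clone 2 and at 235 and 348 in clone 1, with 2278 to 11879 in the controls (log2 difference 6.16, SE 0.34, adjusted p = 1.68e-05). The same order held, with clone 1 far below and clone 2 above every control. GNA11, a G protein alpha subunit of the Gq class (chromosome 19, 3094362 to 3123999), stood at 1571 and 1630.1 in clone 2 and at 38.8 and 44.5 in clone 1, with 221 to 1121 in the controls (log2 difference 5.23, SE 0.31, adjusted p = 1.68e-05). EPS8L1, an actin regulator related to EPS8, stood at 675 and 858 in clone 2 and at 8.62 and 19.5 in clone 1 (log2 difference 5.76, SE 0.49, adjusted p = 0.000241). GRIN2D, an NMDA receptor subunit, stood at 1566 and 1597 in clone 2 and at 64.7 and 79.2 in clone 1 (log2 difference 4.45, SE 0.30, adjusted p = 4.32e-05). The clones did not overlap in any of these 5 genes, although the low clone 1 libraries of CERS1 and EPS8L1 differed from each other by over 2-fold.

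The promoters of LRP3, GNA11 and PRDX2 are printed as examples of genes abundant in clone 2 and below every control in clone 1. Those of CD74 and CTSG are examples of genes lower in clone 2. Other genes meet the same descriptions, and the 5 printed lie near the ends of CpG content among the named genes. GRIN2D, at a level in clone 2 like that of GNA11, has 8 CpG, and RENBP, the largest lower gene, has 15. Each sequence runs from 250 bases before to 50 bases after the start that RefSeq gives on GRCh38.p14, 5′ to 3′ on the strand of the gene, and capitals mark CpG dinucleotides, the sites of DNA methylation.
LRP3 promoter, chr19:33194080-33194379, plus strand: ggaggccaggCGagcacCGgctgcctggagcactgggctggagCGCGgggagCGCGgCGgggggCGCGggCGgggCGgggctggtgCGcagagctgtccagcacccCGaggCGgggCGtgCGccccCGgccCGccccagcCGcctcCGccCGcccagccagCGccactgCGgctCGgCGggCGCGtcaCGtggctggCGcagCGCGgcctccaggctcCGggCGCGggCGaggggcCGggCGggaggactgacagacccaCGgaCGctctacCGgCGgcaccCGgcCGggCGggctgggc
GNA11 promoter, chr19:3094112-3094411, plus strand: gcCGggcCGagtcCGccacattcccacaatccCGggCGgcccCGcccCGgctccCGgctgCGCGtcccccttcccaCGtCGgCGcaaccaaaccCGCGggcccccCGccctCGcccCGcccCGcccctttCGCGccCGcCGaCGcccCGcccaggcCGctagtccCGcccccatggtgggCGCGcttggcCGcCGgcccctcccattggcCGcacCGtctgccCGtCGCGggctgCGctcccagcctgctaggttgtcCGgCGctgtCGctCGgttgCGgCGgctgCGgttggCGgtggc
PRDX2 promoter, chr19:12801751-12802050, minus strand: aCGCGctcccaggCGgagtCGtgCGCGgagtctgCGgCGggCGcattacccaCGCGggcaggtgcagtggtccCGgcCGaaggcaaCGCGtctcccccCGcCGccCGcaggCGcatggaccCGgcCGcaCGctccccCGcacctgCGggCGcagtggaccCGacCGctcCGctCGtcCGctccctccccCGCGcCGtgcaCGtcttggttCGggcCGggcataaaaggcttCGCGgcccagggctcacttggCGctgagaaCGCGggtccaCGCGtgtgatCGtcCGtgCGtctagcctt
CD74 promoter, chr5:150412861-150413160, minus strand: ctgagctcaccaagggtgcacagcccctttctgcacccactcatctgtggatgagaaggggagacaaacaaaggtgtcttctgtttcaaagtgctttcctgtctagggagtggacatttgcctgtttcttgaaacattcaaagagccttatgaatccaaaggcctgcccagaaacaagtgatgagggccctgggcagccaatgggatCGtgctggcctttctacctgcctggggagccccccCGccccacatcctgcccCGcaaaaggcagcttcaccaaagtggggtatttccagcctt
CTSG promoter, chr14:24576201-24576500, minus strand: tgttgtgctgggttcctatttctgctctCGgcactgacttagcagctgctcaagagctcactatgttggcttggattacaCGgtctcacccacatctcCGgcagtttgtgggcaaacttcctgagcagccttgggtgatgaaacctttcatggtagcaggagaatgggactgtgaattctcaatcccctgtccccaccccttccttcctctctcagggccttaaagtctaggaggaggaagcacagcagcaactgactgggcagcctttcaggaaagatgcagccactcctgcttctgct
LRP3 holds 44 CpG in these 300 bases, GNA11 45 and PRDX2 46, against 3 in CD74 and 3 in CTSG. Of the 15 genes with the largest higher values, 11 had a promoter in the RefSeq table, with a median of 31.0 CpG, and 12 of the 15 largest lower genes had one, with a median of 8.5. The median over the 11277 tested genes with a promoter was 25. Genes on both sides went against these medians. GRIN2D and EPS8L1 among the higher genes had 8 and 9 CpG, and FBXO44 among the lower genes had 43. Over all 22 higher genes with a promoter the median was 24.0, and over all 90 lower genes 22.5, so the contrast in CpG content was seen in the genes with the largest differences and not over all called genes. DNA methylation was not measured. The cyclic AMP response element TGACGTCA was found in 0 of the 22 higher and in 4 of the 90 lower promoters (4.44 percent), against 3.15 percent of the promoters of tested genes, and the AP-1 motif TGANTCA in 2 and 6 (9.09 and 6.67 percent) against 4.67 percent. Both motifs read the same on either strand, and a TGACGTCA is no TGANTCA.

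PRDX2, a peroxiredoxin that removes hydrogen peroxide (chromosome 19, 12796823 to 12801800), stood at 999 and 2021 in clone 2 and at 38.8 and 41.2 in clone 1, with 1353 to 3952 in the controls (log2 difference 5.12, SE 0.38, adjusted p = 9.21e-05). The clones were far apart. In the JDP2 clones PRDX2 stood at 8.32 and 20.2 in clone 2 and at 0 and 82.05 in clone 1, and with all knockout libraries in 1 fit the difference between the ATF7 clones had an adjusted p of 0.302. SIX5, a homeobox transcription factor, stood at 464 and 844 in clone 2 and at 14.01 and 19.5 in clone 1 (log2 difference 5.16, SE 0.47, adjusted p = 0.000364). PLPPR3, a phospholipid phosphatase-related membrane protein, stood at 3653 and 9285 in clone 2 and at 195 and 494 in clone 1 (log2 difference 4.23, SE 0.49, adjusted p = 0.00215). DLL3, a Notch ligand, stood at 189 and 345 in clone 2 and at 0 and 13.02 in clone 1 (log2 difference 6.10, SE 1.18, adjusted p = 0.0413), and was the least stable of these, called in 8 of the 14 other settings. The clones did not overlap in SIX5, PLPPR3 or DLL3. ZNF470, a zinc finger gene on the same chromosome, stood at 145 and 189.7 in clone 2 and at 12.9 and 8.68 in clone 1 (log2 difference 3.84, SE 0.67, adjusted p = 0.0259).

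Among the 850 chromosome 19 genes with a mean of at least 50, 17 were over 3 log2 units higher in clone 2, of which 13 were called, and all other chromosomes held 12 such genes. In all 17, both clone 1 libraries lay below the lowest control, and in 11 both clone 2 libraries lay above the highest control. Relative to the mean of the controls their median was 0.90 and 1.44 in clone 2 and -3.86 and -3.24 in clone 1. The same 17 genes were also low in JDP2 knockout clone 2, with medians of -4.05 and -4.49 and 15 of them below every control, and not in JDP2 knockout clone 1, with medians of 0.66 and 0.45 and 4 below every control. The knockout control libraries lay lower than the other controls, at -0.63 and -1.24. The other 833 genes of the chromosome had medians of 0.19 and 0.60 in clone 2 and of -0.09 and 0.06 in clone 1. The genes were spread along the chromosome and did not form 1 block. The 17 genes were chosen by the difference between the ATF7 clones, so their values in those clones are a description.

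**Figure D2:**
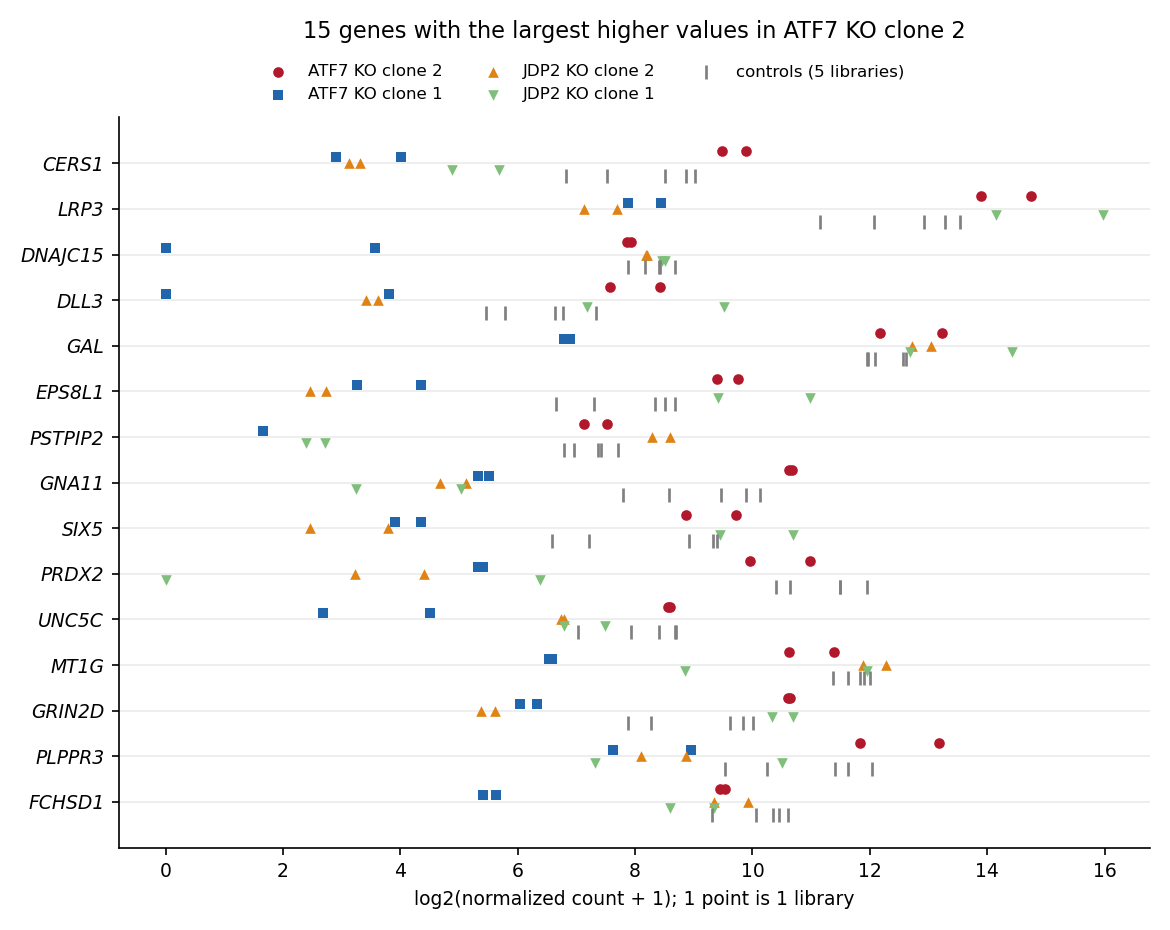
Rows are the 15 genes with the largest higher values in clone 2, and the horizontal axis is log2(normalized count + 1), with 1 point per library. Clone 2 (red) lies to the right of clone 1 (blue) in all 15, and JDP2 knockout clone 2 (orange) lies near clone 1 for CERS1, LRP3, DLL3, EPS8L1, SIX5 and GRIN2D and near the controls for DNAJC15, GAL and FCHSD1.

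The higher genes outside chromosome 19 had no common location. GAL, which encodes the neuropeptide galanin (chromosome 11, 68684544 to 68691175), stood at 4624 and 9594 normalized counts in clone 2 and at 109 and 117 in clone 1, with 3963 to 6285 in the controls (log2 difference 5.87, SE 0.35, adjusted p = 1.68e-05). MT1G, a metallothionein that binds zinc and copper (chromosome 16, 56666730 to 56668065), stood at 1571 and 2672 in clone 2 and at 94.9 and 91.1 in clone 1, with 2644 to 4129 in the controls (log2 difference 4.45, SE 0.32, adjusted p = 9.03e-05). For both genes the clone 1 libraries were below all controls, and for MT1G so was 1 library of clone 2. UNC5C, a netrin receptor, stood at 384 and 375 in clone 2 and at 5.39 and 21.7 in clone 1 (log2 difference 4.98, SE 0.65, adjusted p = 0.00548). FCHSD1, an F-BAR domain protein, stood at 695 and 741 in clone 2 and at 48.5 and 41.2 in clone 1 (log2 difference 3.97, SE 0.34, adjusted p = 0.000245). DNAJC15, a co-chaperone of the mitochondrial inner membrane, stood at 242 and 233 in clone 2 and at 0 and 10.8 in clone 1, with 233 to 409 in the controls (log2 difference 6.11, SE 1.16, adjusted p = 0.038). Clone 1 had almost lost this transcript, and its call rested on fewer settings, 9 of 14. Metallothionein genes are close copies of each other, and the counting of reads shared between them is not given in the sources used here.

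Genes that were at 3 or fewer normalized counts in both libraries of a clone and at 50 or more in both of the other were counted as switched. There were 4, all on in clone 2 and off in clone 1. RSPO3, a secreted enhancer of Wnt signalling (chromosome 6, 127118671 to 127199481), stood at 54.4 and 75.6 in clone 2 and was listed at 0 in both clone 1 libraries, so it was at least 20-fold higher in clone 2, taking 3 reads in each clone 1 library as the floor. It stood at 6.58 to 25.4 in the controls, so clone 2 was above and clone 1 below all of them. PSTPIP2, an F-BAR protein of macrophages (chromosome 18, 45983536 to 46072260), stood at 182 and 139 in clone 2 and at 2.16 and 2.17 in clone 1 (log2 difference 5.66, SE 1.03, adjusted p = 0.0311). It was also near 0 in JDP2 knockout clone 1 (4.22 and 5.59) and not in JDP2 knockout clone 2 (312 and 384), the reverse of the chromosome 19 genes. DKKL1, a dickkopf-like secreted protein, stood at 63.6 and 63.6 in clone 2 and at 2.16 and 0 in clone 1. ZNF331, a zinc finger gene, stood at 103 and 88.8 in clone 2 and at 1.08 and 2.17 in clone 1. RSPO3, DKKL1 and ZNF331 did not pass the test across all genes (adjusted p = 0.373, 0.332 and 0.119). With 10 or fewer as the lower limit 10 genes were switched, 9 of them on in clone 2.

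Of the 28 higher genes, 25 had clone 1 below all 5 controls, and in 10 of these clone 2 was also above all of them. In the other 3 clone 2 was above and clone 1 within the range. Of all tested genes, 6.41 percent had clone 1 below the controls. The order was turned round in the 116 lower genes. Clone 2 lay below all 5 controls in 107 of them, in 17 of these with clone 1 above, in 85 with clone 1 within the range and in 5 with clone 1 below as well. In 7 genes clone 1 was above the controls and clone 2 within them, and in 2 neither was outside. Of all tested genes, 11 percent had clone 2 below the controls. Both sets were chosen by the difference between the ATF7 clones, so the places of these clones are a description and no test. The JDP2 knockout lines, set against the same 5 controls, lay below all of them in 57 of the 116 genes in JDP2 clone 2 and in 62 in JDP2 clone 1, against 10.8 and 9.44 percent of all tested genes.

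RENBP, an N-acetylglucosamine epimerase that also binds renin (chromosome X, 153935269 to 153944643), stood at 46.3 and 25.2 normalized counts in clone 2 and at 4964 and 6831 in clone 1, with 3414 to 4029 in the controls (log2 difference -7.37, SE 0.35, adjusted p = 5.98e-06). This was the largest called difference between the clones, with clone 2 far below every control and clone 1 above. The JDP2 knockout libraries held 3777 and 6543 in clone 2 and 2261 and 9074 in clone 1. CD74, the invariant chain that guides MHC class II molecules (chromosome 5, 150401639 to 150412910), stood at 62.5 and 7.2 in clone 2 and at 1141 and 1714 in clone 1, with 1394 to 2584 in the controls (log2 difference -5.94, SE 0.73, adjusted p = 0.00376). Here too clone 2 fell outside the controls and clone 1 did not lie above them. ITGAD, the alpha D subunit of leukocyte integrins (chromosome 16, 31393335 to 31426505), stood at 87.9 and 9.6 in clone 2 and at 3497 and 4590.4 in clone 1, with 31.8 to 266 in the controls (log2 difference -7.03, SE 0.73, adjusted p = 0.000962). In this gene clone 1 was above the controls and clone 2 overlapped them. SIGLEC9, an inhibitory sialic acid receptor (chromosome 19, 51119778 to 51136263), stood at 39.3 and 3.6 in clone 2 and at 729.8 and 316 in clone 1 (log2 difference -5.14, SE 0.86, adjusted p = 0.0213). ITGAM, the neighbour of ITGAD that encodes CD11b, stood at 581 and 645 in clone 2 and at 1867 and 2270.2 in clone 1, with 484 to 1202 in the controls (log2 difference -1.75, SE 0.27, adjusted p = 0.0128). ITGAM too was above the controls in clone 1 and within their range in clone 2.

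POU2F2, the transcription factor OCT2 (chromosome 19, 42086110 to 42197936), stood at 781 and 592 in clone 2 and at 14816 and 9573 in clone 1, with 4625 to 9419 in the controls (log2 difference -4.13, SE 0.31, adjusted p = 9.21e-05). Clone 2 was below and clone 1 above every control. HSH2D, an adaptor of blood cells, stood at 45.1 and 54.02 in clone 2 and at 618 and 626 in clone 1 (log2 difference -3.63, SE 0.34, adjusted p = 0.000483), and PALM, a membrane protein of cell processes, at 67.1 and 42.01 in clone 2 and at 569 and 1099 in clone 1 (log2 difference -3.87, SE 0.41, adjusted p = 0.00105). FBXO44, a ubiquitin ligase subunit, stood at 49.8 and 79.2 in clone 2 and at 683 and 856 in clone 1 (log2 difference -3.59, SE 0.36, adjusted p = 0.0007). COX17, which carries copper to cytochrome oxidase, stood at 192 and 284 in clone 2 and at 2206 and 1956 in clone 1, with 1659.9 to 2285 in the controls (log2 difference -3.15, SE 0.29, adjusted p = 0.000483). COX17 and FBXO44 were near the controls in clone 1 and below them in clone 2. CHI3L1, a chitinase-like protein of macrophages, stood at 118 and 91.2 in clone 2 and at 1555 and 1107 in clone 1 (log2 difference -3.65, SE 0.31, adjusted p = 0.000245). ZG16B, a secreted lectin, stood at 27.8 and 6 in clone 2 and at 176 and 217 in clone 1 (log2 difference -3.79, SE 0.74, adjusted p = 0.0421), against 1.87 to 17.4 in the controls. CHI3L1 was below the controls in clone 2, and ZG16B was above them in clone 1. COL13A1, a membrane collagen, stood at 76.4 and 40.8 in clone 2 and at 312 and 559.7 in clone 1 (log2 difference -2.88, SE 0.44, adjusted p = 0.0127). LILRA1, a leukocyte immunoglobulin-like receptor with close copies beside it, stood at 4.63 and 33.6 in clone 2 and at 200.52 and 315 in clone 1 (log2 difference -4.18, SE 0.80, adjusted p = 0.0406). LILRA1, ZG16B and COL13A1 were called in 8 of the 14 other settings.

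**Figure D3:**
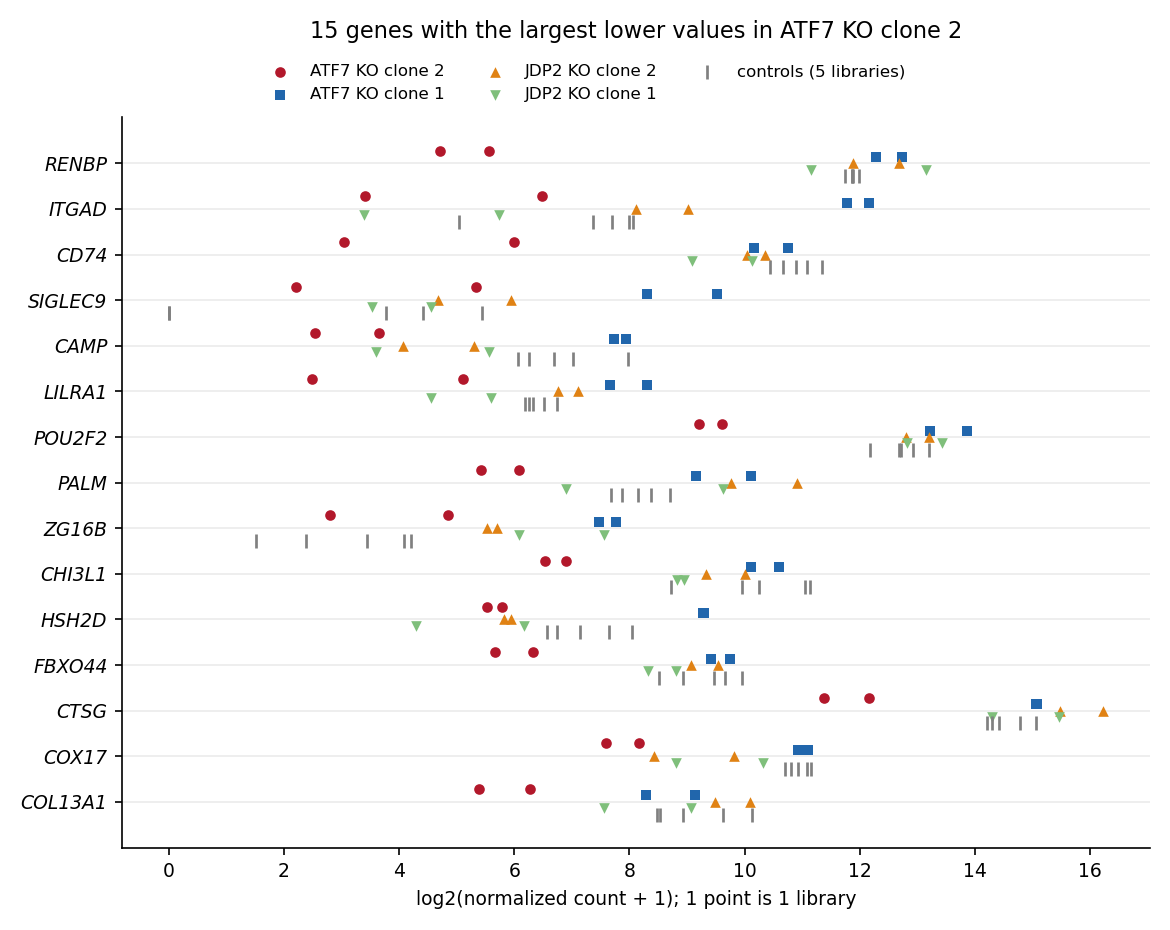
Rows are the 15 genes with the largest lower values in clone 2, and the horizontal axis is log2(normalized count + 1), with 1 point per library. Clone 2 (red) lies to the left of clone 1 (blue) in all 15, below the controls for RENBP, CD74, POU2F2 and CTSG, and overlaps them for ITGAD, where clone 1 lies to their right.

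Genes of monocytes and macrophages were lower in clone 2 where they were called. Of 41 tested, 5 were lower in clone 2 and 0 higher (12.2 percent called, against 0.822 percent called lower among all tested genes). The list had a median of -0.27 against 0.11 over all tested genes. In 17 of the 41 clone 2 was wholly below clone 1, a larger share than the 17.7 percent of all tested genes. CD4, a co-receptor that monocytes also carry, stood at 617 and 1200.4 in clone 2 and at 4268 and 5752 in clone 1, with 4919 to 6153 in the controls (log2 difference -2.52, SE 0.35, adjusted p = 0.00738). CD68, a glycoprotein of macrophage lysosomes, stood at 484 and 766 in clone 2 and at 2492 and 2677 in clone 1, with 1813 to 4856 in the controls (log2 difference -2.08, SE 0.30, adjusted p = 0.00935). TYROBP, the DAP12 signalling adaptor of myeloid receptors, stood at 164 and 521 in clone 2 and at 1194 and 2582 in clone 1, with 398 to 1254 in the controls (log2 difference -2.58, SE 0.51, adjusted p = 0.0423). Clone 2 lay below the controls in CD4 and CD68, and for TYROBP neither clone lay wholly outside them. The clones did not overlap in any of these 3 genes, although the levels in clone 2 differed more between its libraries for TYROBP than for CD68. In bulk RNA, fewer cells with a transcript and less of it per cell cannot be told apart.

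Of 19 tested myeloid granule genes, 3 were lower and 0 higher, against 0.822 percent lower among all tested genes. Clone 2 was wholly below clone 1 in 6 of the 19 and wholly above in 2, while the median of the list was 0.31. CTSG, the serine protease cathepsin G (chromosome 14, 24573518 to 24576250), stood at 2653 and 4546 normalized counts in clone 2 and at 33964 and 34436 in clone 1, with 18888 to 34043 in the controls (log2 difference -3.30, SE 0.33, adjusted p = 0.000831). CAMP, the precursor of the antimicrobial peptide LL-37, stood at 11.6 and 4.8 in clone 2 and at 211 and 245 in clone 1 (log2 difference -4.74, SE 0.70, adjusted p = 0.0103). MMP9, the gelatinase of neutrophils and macrophages, stood at 367 and 569 in clone 2 and at 1480.2 and 1581 in clone 1, with 196 to 753 in the controls (log2 difference -1.74, SE 0.30, adjusted p = 0.0226). CTSG and CAMP were below the controls in clone 2, and MMP9 was above them in clone 1.

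Innate immune genes that were called were lower in clone 2 as well. Among interferon-stimulated genes 2 of 41 were lower, with a median of -0.33, and 21 of the 41 had clone 2 wholly below clone 1, against 0.822 percent called lower and 17.7 percent wholly below among all tested genes. OAS3, which makes the 2-5A activator of RNase L, stood at 377 and 214 in clone 2 and at 1703 and 1063 in clone 1 (log2 difference -2.24, SE 0.35, adjusted p = 0.0143), and IFI35 at 43.97 and 30.01 in clone 2 and at 182 and 239 in clone 1 (log2 difference -2.49, SE 0.47, adjusted p = 0.038). Both overlapped the controls in clone 1 and were below them in clone 2. Among cytokines and chemokines 2 of 17 were lower (11.8 percent, against 0.822 percent of all tested genes), with a median of -0.37. IL1RN, the interleukin-1 receptor antagonist, stood at 86.8 and 48.02 in clone 2 and at 406 and 295 in clone 1 (log2 difference -2.40, SE 0.41, adjusted p = 0.0237). CCL5, a chemokine that attracts T cells and monocytes, stood at 547 and 929 in clone 2 and at 2377 and 1959 in clone 1 (log2 difference -1.60, SE 0.31, adjusted p = 0.0423). CCL5 was below the control range of 2984 to 5230.2 in both clones, the lower in clone 2. CD74 was the 1 called gene of 8 tested MHC class II genes (12.5 percent, against the same 0.822 percent). The Toll-like receptor and inflammasome list had 0 of 25 called, with 3 at an unadjusted p under 0.05 and 0 by edgeR or DESeq2.

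Several lower genes encode parts of abundant machines. Of 76 cytosolic ribosomal protein genes 3 were lower and 0 higher (3.95 percent called, against 0.822 percent called lower among all tested genes). The median of this list was 0.43. RPL3 stood at 14806 and 30162 normalized counts in clone 2 and at 94298 and 100744 in clone 1 (log2 difference -2.21, SE 0.41, adjusted p = 0.0343), RPL12 at 7235 and 12342 in clone 2 and at 34541 and 39850.2 in clone 1 (log2 difference -1.97, SE 0.35, adjusted p = 0.0275), and RPL35 at 3331 and 7244 in clone 2 and at 22336 and 25831 in clone 1 (log2 difference -2.29, SE 0.38, adjusted p = 0.0205). Clone 2 was wholly below clone 1 in 9 of the 76 and wholly above in 3, against 17.7 and 18.9 percent of all tested genes. Neither count exceeded the share over all genes. Ribosomal protein genes have many processed copies in the genome. RPL3, RPL12 and RPL35 were also below every control in both JDP2 knockout clones, with RPL12 at 12377 and 8638 in JDP2 clone 2 and at 19353 and 13096 in JDP2 clone 1. Of 57 oxidative phosphorylation genes 1 was lower (1.75 percent, against 0.822 percent of all tested genes), with a list median of 0.27. It was the complex I subunit NDUFA6, at 312 and 497 in clone 2 and 2699 and 3111 in clone 1 (log2 difference -2.88, SE 0.30, adjusted p = 0.00104). TIMP1 and TIMP2, inhibitors of matrix metalloproteinases, were 2 of 4 lower genes among 101 of the matrix list (3.96 percent, against 0.822 percent of all tested genes). TIMP1 stood at 1770.4 and 2781 in clone 2 and at 8951 and 8874 in clone 1 (log2 difference -2.01, SE 0.30, adjusted p = 0.0119), and TIMP2 at 996 and 1369.7 in clone 2 and at 3451 and 3599 in clone 1 (log2 difference -1.59, SE 0.28, adjusted p = 0.0259). MT1X stood at 406 and 324 in clone 2 and at 1709 and 1182 in clone 1 (log2 difference -1.97, SE 0.30, adjusted p = 0.0117), opposite in direction to its relative MT1G. PHLDA3, a p53 target that restrains AKT, stood at 109 and 168 in clone 2 and at 658 and 776 in clone 1 (log2 difference -2.39, SE 0.33, adjusted p = 0.00725). PFKFB4, a regulator of glycolysis, stood at 228 and 621 in clone 2 and at 1612 and 4072 in clone 1 (log2 difference -2.76, SE 0.50, adjusted p = 0.0297), and CBS, which makes cystathionine, at 128 and 289 in clone 2 and at 709 and 720.2 in clone 1 (log2 difference -1.88, SE 0.38, adjusted p = 0.0471). For RPL3, RPL35, CBS and PFKFB4 the clone 2 libraries differed from each other by over 2-fold, replicate 1 being the lower, and for PFKFB4 so did the clone 1 libraries.

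The lower genes were also unevenly spread over transcript composition. Of the 116, 65 fell in the second highest of 5 equal bins of transcript GC content (53.2 to 59.2 percent) and 1 in the lowest, and 50 were in the shortest of 5 bins of transcript length (about 2160 bases or less), against 11 in the longest. Clone 2 replicate 1 was lower than replicate 2 by a median of -0.43 in the shortest bin and higher by 0.52 in the longest, while the clone difference had medians of 0.13 and 0.13 there. By GC, the clone difference had a median of -0.13 in that second highest bin, against 0.20 in the lowest and 0.12 in the highest. The part of composition in the lower calls was not tested.

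Chromosome 13 differed along most of its long arm. From NUFIP1 onward (44939249 to 114327322, GRCh38.p14), 112 genes with a mean of at least 50 had a median log2 difference of -0.74 (interquartile range -1.01 to -0.54), and 109 of the 112 were below 0. In 84 of them (75 percent) both clone 2 libraries were below both clone 1 libraries, against 17.7 percent of all tested genes. The 79 genes before it, up to TSC22D1, had a median of 0.28 and 4 such genes. The change lay between 2 neighbouring genes of the table, and no other chromosome, split at its own best place, had a difference between its parts beyond -0.36. Relative to the controls, the 112 genes stood at 60.9 and 58.6 percent in clone 2, at 106 and 98.9 percent in clone 1 and at 83.2 to 113 percent in the other 15 libraries. Both clone 2 libraries were below all controls in 73 of the genes and both clone 1 libraries in 5. The place was found in these data, so this is a description with no test, and DNA copy number was not measured.

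Of these 112 genes 6 were called, all lower in clone 2, against 0.822 percent called lower among all tested genes. LAMP1, a major protein of the lysosome membrane (chromosome 13, 113297239 to 113323672), stood at 12654 and 16749 normalized counts in clone 2 and at 58582 and 57727 in clone 1, with 20660.2 to 48249.9 in the controls (log2 difference -1.998, SE 0.33, adjusted p = 0.0213). GAS6, the ligand of the receptor kinases AXL and MERTK, stood at 329.8 and 287 in clone 2 and at 1298 and 1035 in clone 1 (log2 difference -1.91, SE 0.28, adjusted p = 0.0102). ATP7B, a copper transporter, stood at 304 and 226 in clone 2 and at 817 and 777 in clone 1 (log2 difference -1.60, SE 0.29, adjusted p = 0.0311). All 3 were below the controls in clone 2. KCTD12, ARL11 and RCBTB2 were the other called genes, with log2 differences of -1.97, -1.75 and -1.43 (adjusted p = 0.0437, 0.0204 and 0.038). KCTD12 and ARL11 were below the controls in clone 2, and LAMP1 and KCTD12 were also above them in clone 1. RCBTB2 was not wholly outside the controls in clone 2 and was above them in clone 1. Relative to the control mean it stood at -0.10 and -0.39 in clone 2 and at 1.28 and 1.09 in clone 1. RB1, the retinoblastoma tumor suppressor, lies in the same stretch and was picked after its values were seen. It stood at 2534 and 1829 in clone 2 and at 4254 and 2839.7 in clone 1, with 3057 to 4961 in the controls (log2 difference -0.69, SE 0.31, adjusted p = 0.521). GAS6, ATP7B, KCTD12, ARL11 and RCBTB2 were named because the count of called genes there is small. FLT3, a growth factor receptor of progenitors that lies before the change, stood at 94.9 and 40.8 in clone 2 and at 4.31 and 17.4 in clone 1 and did not pass the test (adjusted p = 0.428).

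**Figure D4:**
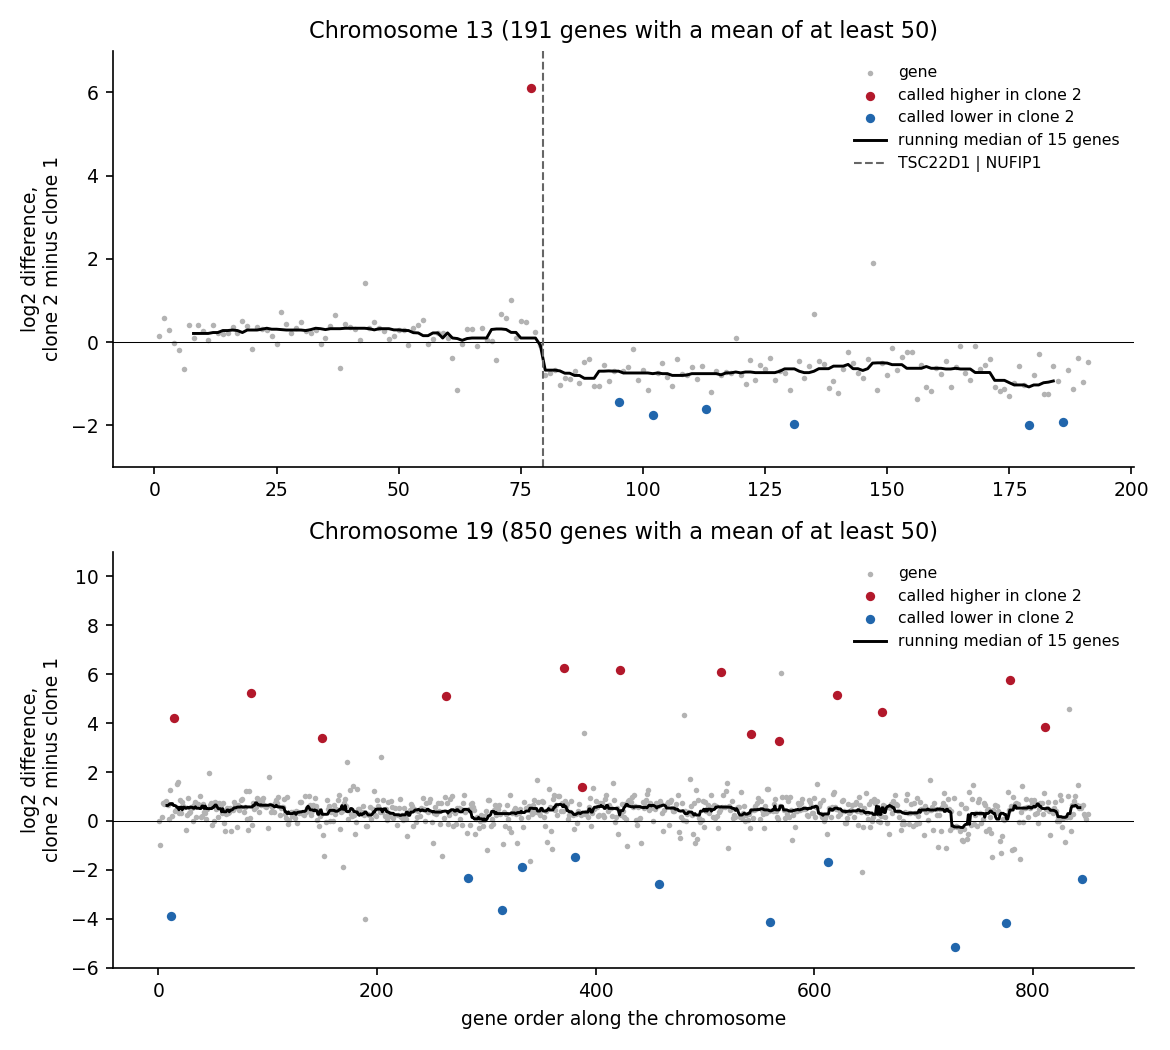
Genes with a mean of at least 50 are placed by their order along chromosome 13 (top, 191 genes) and chromosome 19 (bottom, 850 genes), with the log2 difference of clone 2 minus clone 1 on the vertical axis and a running median as a line. On chromosome 13 the median changes sign once, between TSC22D1 and NUFIP1, and on chromosome 19 single genes stand far above and below a median of 0.45.

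Calls among the ATF and JUN families depended on the tool. Of 30 tested genes for bZIP factors of the AP-1 and ATF group, limma called 0, with 6 at an unadjusted p under 0.05, 0 called by edgeR and 3 by DESeq2, and the median was 0.13. Clone 2 was wholly above clone 1 in 10 of the 30 and wholly below in 5, against 18.9 and 17.7 percent of all tested genes. The largest difference without overlap was that of ATF6B, a sensor of endoplasmic reticulum stress, at 3192 and 6268 in clone 2 and 13427 and 15591 in clone 1 (log2 difference -1.69, adjusted p = 0.0557). Proliferation genes had 0 of 55 called (3 at an unadjusted p under 0.05, 0 by edgeR, 1 by DESeq2) and a median of 0.06. Myeloid transcription factors had 0 of 30 called (3 at an unadjusted p under 0.05, 0 by edgeR or DESeq2) and a median of 0.08, and the largest difference among them without overlap was that of RUNX2, at 727 and 639.8 in clone 2 and 339 and 312 in clone 1 (adjusted p = 0.13). Cholesterol and fatty acid genes had 0 of 36 called (8 at an unadjusted p under 0.05, 1 by edgeR, 2 by DESeq2), and 15 of them had clone 2 wholly below clone 1, against 17.7 percent of all tested genes, with a median of -0.39. NR1H3, the sterol-sensing receptor LXR alpha, stood at 77.5 and 103 in clone 2 and at 239 and 368 in clone 1 (adjusted p = 0.07). Glycolysis and hypoxia genes had 16 of 36 with clone 2 wholly below clone 1, also against 17.7 percent, and a median of -0.27. Zinc finger genes had 1 of 368 higher and 1 lower (0.543 percent called, against 1.02 percent of all tested genes) and a median of 0.25. Clone 2 was wholly above clone 1 in 125 of them and wholly below in 49, against 18.9 and 17.7 percent of all tested genes.

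Most lists of markers of other cell types had a raised median in 1 library of clone 2 and not in the other. Stromal and endothelial markers had a median of 2.58 relative to the controls in clone 2 replicate 1 and -0.26 in replicate 2, against -0.19 and 1.17 in clone 1. Lymphoid markers had 1.74 and -0.41 in clone 2 and -0.24 and 0.80 in clone 1, and erythroid and megakaryocyte markers 2.39 and -0.33 in clone 2 and -0.63 and 0.74 in clone 1. Epithelial markers were above 0 in both clone 2 libraries, at 1.61 and 0.76, against -0.36 and 0.59 in clone 1, with 12 and 7 of 21 genes above all controls in the clone 2 libraries. These are medians of log2 differences among genes with few reads. Summed levels did not all follow them. The epithelial sum was 809 and 347 normalized counts in clone 2 and 357 and 539 in clone 1, with 297 to 521 in the controls. Clone 2 replicate 1 and clone 1 replicate 2 were thus above the control range. The lymphoid sum over 28 genes was 8543 and 13479 in clone 2 and 14811 and 17467 in clone 1, with 13500.2 to 19890.4 in the controls, and most of it was NKG7, at 6167 and 10909 in clone 2 and 12676 and 15475 in clone 1. IGHM, HBA1, HBG1, HBG2 and KRT20 were at 0 in all 4 libraries. Of 53 clustered protocadherin genes, which encode neuronal adhesion proteins, all 53 had reads in clone 2 replicate 1 and 17 in replicate 2, against 28 and 45 in clone 1. Their sum was 1648 and 139 in clone 2 and 179 and 335 in clone 1. Limma called 0 genes in the lymphoid, erythroid, epithelial, stromal and protocadherin lists, with 0 to 3 per list at an unadjusted p under 0.05, 0 by edgeR and up to 1 by DESeq2. Fits without clone 2 replicate 1 are given with the counts above.

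**Figure D5:**
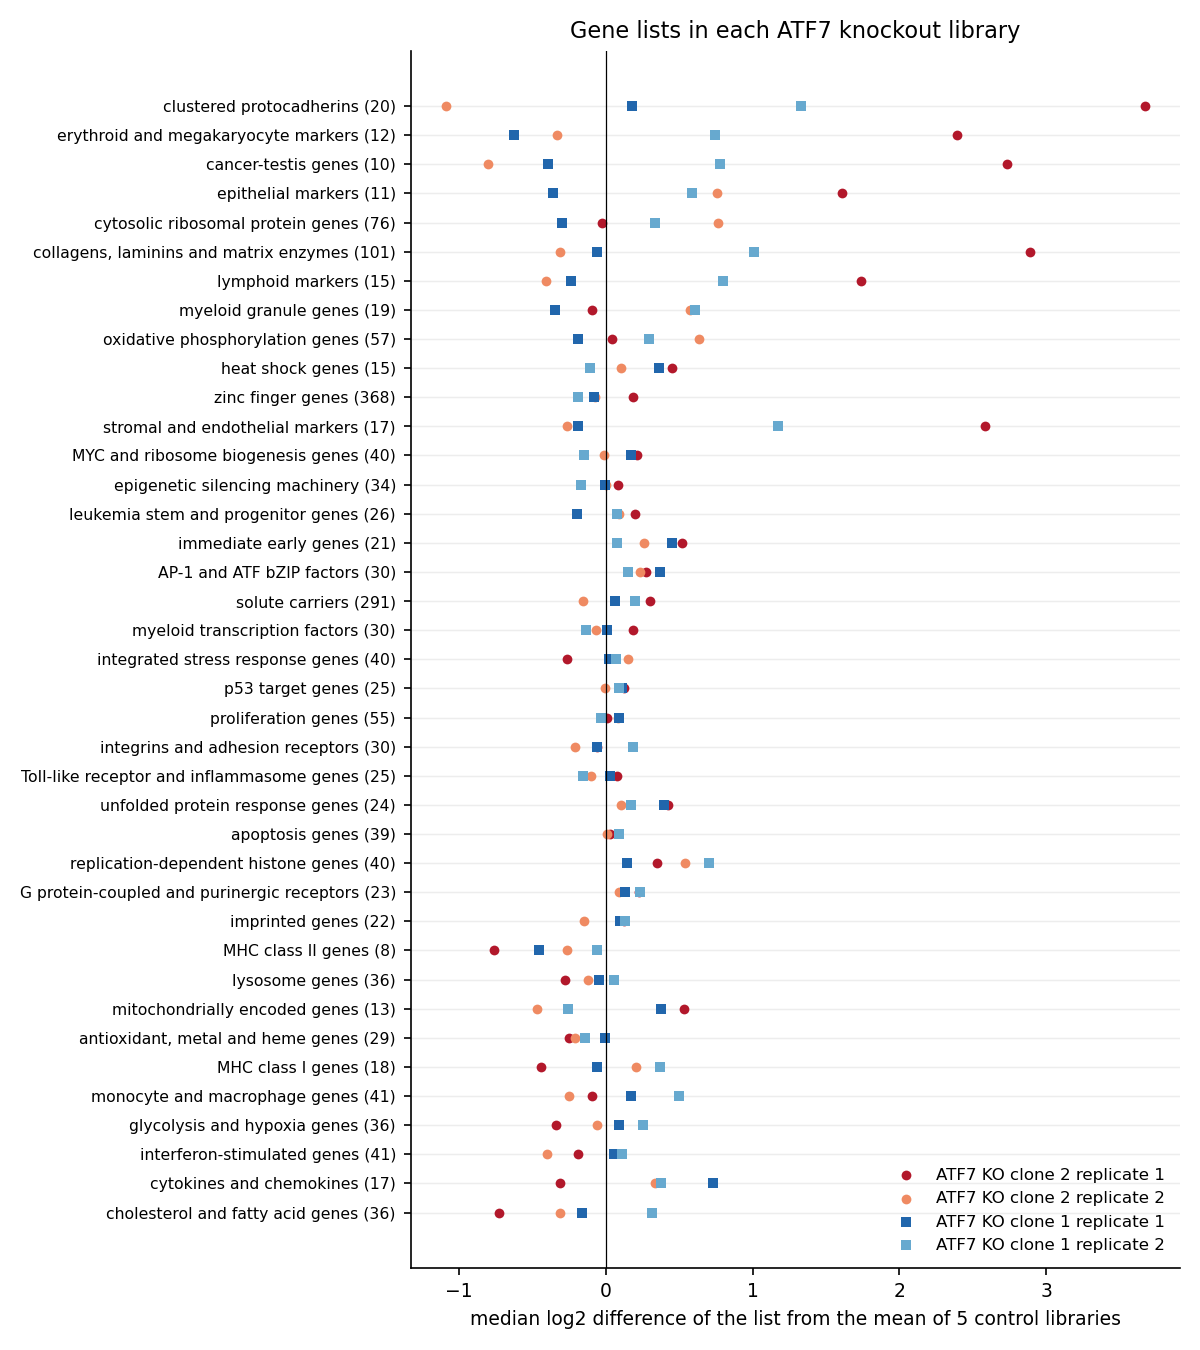
Each row is a gene list with its number of tested genes, and each point is the median log2 difference of that list from the mean of 5 control libraries in 1 ATF7 knockout library. Clone 2 replicate 1 (dark red) stands far to the right for protocadherins, matrix genes and markers of other cell types, while clone 2 replicate 2 (light red) does not, apart from epithelial markers at 0.76, and both clone 2 libraries lie left of both clone 1 libraries for monocyte and macrophage and for interferon-stimulated genes.

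The clones were pooled in the authors' deposited table of ATF7 knockout against controls, which has 40 genes called of 12687 with an adjusted p (0.315 percent). Of the genes called in the authors' deposited table, 0 were among the 28 higher in clone 2 and 3 among the 116 lower. CCL5 and ZG16B were among the 3, with log2 fold changes of -1.33 and 2.08 in the authors' deposited table. For ZG16B clone 1 was above all controls and clone 2 was not wholly outside them. The authors' deposited table gives a median fold change of -0.15 for the 28 genes and -0.40 for the 116 on the log2 scale. These pool the clones against the controls, and the genes were chosen by the difference between the clones. The size of the 2 measures is therefore not compared.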

How the data were processed

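The 4 libraries of ATF7 knockout clones 2 and 1 were compared, with 15 other libraries as context. The main file is the authors' deposited matrix of normalized values, a signal in which each library's counts were scaled by its own DESeq2 size factor. Counting used featureCounts on hg38 and scaling used DESeq2, per the submitters' processing notes, which give no version. Overlapping or near-identical genes could not be separated, since aligner, annotation and strand handling were not given in the sources used here. The values of the 4 libraries were whole multiples of 1 step within 0.01, which gave read counts. The authors' deposited table of ATF7 knockout against controls holds log2 fold changes with their errors, p-values, a Wald score and a mean signal.

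Values were transformed as log2(value + 1), so changes of genes with few reads come out too small. Genes with a mean of at least 10 over the 4 libraries were tested with limma 3.58.1 (R 4.3.3; empirical Bayes with a trend, 2 residual degrees of freedom), tested on simulated data first, and a Benjamini-Hochberg adjusted p under 0.05 over all 14113 genes made a call. Alternatives used edgeR 4.0.16 and DESeq2 1.42.0 on the read counts, other scalings, filters, pseudocounts, fitted libraries and left-out libraries. Positions were taken from RefSeq on GRCh38.p14 for 99.3 percent of tested genes, and transcript length and GC content from GENCODE for 97.2 percent. The members and lists were chosen with earlier results of these data known. The genes named are the 15 largest called differences in each direction (mean of at least 50 in either clone, clones not overlapping), ATF7, JDP2 and IRF2BP2, switched genes, and up to 4 called members of a list by lowest p, or else the 2 largest without overlap. TYROBP and, on chromosome 13, GAS6, ATP7B, KCTD12, ARL11, RCBTB2 and RB1 fall outside this rule and were named after their values were seen. So were SPI1, LYZ, CD33, MEIS1, CSF1R, ITGB2, FCER1G, HOXA9, CD14 and MPO as markers. Of 21 labelled libraries, 2 marked as low quality were not analysed here. Libraries of a clone differed by more than sampling noise (chi-square per gene 118 in clone 2 and 66.5 in clone 1).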

Additional observations from a re-analysis of the deposited data

How the results depend on the processing

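The count of called genes, 144, went to 90 with no filter on low values, 68 with a mean of at least 50, 476 with TMM factors, 63 with equal totals, 22 with quantile normalization, 321 with DESeq2, 39 in a fit of the knockout arm and 66 in a fit of all libraries. It was 128 to 168 with edgeR or another pseudocount. Leaving out 1 of the 4 libraries gave 0 to 134, taking the lone library of a clone to vary like the other clone, and leaving out clone 2 replicate 1 from the fit of all libraries gave 49. The labels do not tie libraries by replicate number, and the data do not settle whether the numbers pair them (correlation of deviations -0.445 over all tested genes and 0.201 over those with a mean of at least 50; replicate 1 minus 2 had the same sign in both clones in the outer bins of GC and length). The replicate block gave 2214 calls and a block with crossed numbers, added after the data were seen, 154. Switched genes numbered 10 with 10 as the lower limit and 1 with 100 as the upper. No sign changed among 54 called genes of the text in 972 values, of which 310 missed the threshold. Uncalled genes changed sign when 1 library was left out, ATF7 from -0.66 to 0.10, JDP2 from -0.90 to 0.15 (0.15 also without clone 2 replicate 1 in the fit of all libraries) and IRF2BP2 from -0.18 to 0.47. The chromosome 13 median ranged from -0.85 to -0.69. The cause of these shifts was not tested. With 2 libraries a clone, of which clone 2 replicate 1 stands apart, differences in genes with few reads are the least certain.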

Other observations

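With 10 normalized counts in place of 3 as the lower limit of a switched gene, the added genes were mostly of low level and were not called, and they are given as values chosen after they were seen. PCDHB2, a protocadherin, stood at 87.9 and 62.4 normalized counts in clone 2 and at 6.47 and 8.68 in clone 1. HMX3, a homeobox gene, stood at 76.4 and 72.02 in clone 2 and at 8.62 and 8.68 in clone 1. CNFN, which encodes cornifelin of the epidermis and lies on chromosome 19, stood at 103 and 228 in clone 2 and at 0 and 4.34 in clone 1. Zinc finger genes of chromosome 19 were found on both sides, with ZNF569 at 112 and 106 in clone 2 and 8.62 and 2.17 in clone 1, ZNF606 at 91.4 and 104 in clone 2 and 2.16 and 4.34 in clone 1, and ZNF600 in the other direction at 9.26 and 2.4 in clone 2 and 61.4 and 50.98 in clone 1. In the controls CNFN held 13.04 to 74.2 and ZNF600 16.3 to 53.98.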
